A study of Mus musculus with 3 samples.

Results

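The genes described here were at least 2-fold higher, or at least 2-fold lower, in the library of old mice on the control diet than in both other libraries of the series, while those other libraries lay close together. They number 68 of 12966 genes compared: 22 were apart upwards (high members) and 46 downwards (low members). By comparison, 0.895% of the genes compared were at least 2-fold above young and 0.841% at least 2-fold below it, and 0.64% and 0.694% were as far above and below aged EPA. They were chosen by their values in these same libraries, as CPM (read counts scaled to a common library size) with 1 added, after rows with the same symbol were summed. Genes whose mean over the libraries was under 1 CPM were not compared. It became a member when aged control lay at least 2-fold from young and from aged EPA on the same side, with no more than 1.5-fold between those libraries. Cacng6, Cacng7 and names that mark mitochondrial, ribosomal, proteasome, chaperone and collagen genes were left out. Before any name was left out, 0.17% of the genes compared were high and 0.386% were low by these thresholds. Because the thresholds chose the genes, the differences below are descriptions and nothing is concluded from their size or their count.

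The libraries came from gastrocnemius and plantaris, calf muscles made mostly of fast fibres, of male mice. The young library pooled RNA of 3 mice aged 24 weeks, with the strain given as C57BL/7J and no diet given. The aged control library pooled RNA of 6 C57BL/6J mice fed a diet deprived of eicosapentaenoic acid (EPA, a fatty acid found in fish oil) for 12 weeks from 75 weeks of age, and the aged EPA library pooled RNA of 6 such mice whose diet held 1 wt% EPA. Both aged groups were 87 weeks old at sampling. Below, "with EPA" means the aged EPA library. Each group is 1 library, so no difference has an error between mice or preparations and no test is possible.

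The 68 genes are not one pathway. They hold transcription factors, which bind promoters and set how much RNA a gene makes, GTPases and kinases, which switch signalling and transport on and off, and proteins that tie membranes to the actin and microtubule skeleton. Muscle fibres use all of these to keep long, multinucleate cells supplied and anchored. In RNA of whole muscle, fewer cells of a type and less RNA per cell cannot be told apart.

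The counts recovered from the CPM summed to 57386394 (young), 57622886 (aged control) and 55969822 (aged EPA), at which 3 counts equal between 0.0521 and 0.0536 CPM. Fibre markers such as Acta1 and Ckm were abundant in every library, with a summed level of 12 such genes of 120021 CPM in young, 133664 in aged control and 134579 in aged EPA. Of these, Myh7 was more than 2-fold above young in aged control (66.4, 178 and 126 CPM in the same order). The median log2 change over all compared genes was -0.013 for aged control minus young and 0.025 for aged control minus aged EPA.

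High members summed to 467 CPM in young, 1220.4 CPM in aged control and 481 CPM with EPA. Low members summed to 1659.9 CPM in young, 440.4 CPM in aged control and 1537 CPM with EPA. Their levels were spread widely: 8 of 22 high and 12 of 46 low members had a mean of at least 20 CPM, while 8 and 16 had a mean under 5 CPM. Aged EPA exceeded young in 11 of the 22 high members and in 22 of the 46 low members. The 95% counting interval (exact Clopper-Pearson) of the ratio of aged EPA to young included no difference in 32 of the 66 members for which a ratio exists. This closeness of the other libraries is also a product of the rule.

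**Figure D1:**
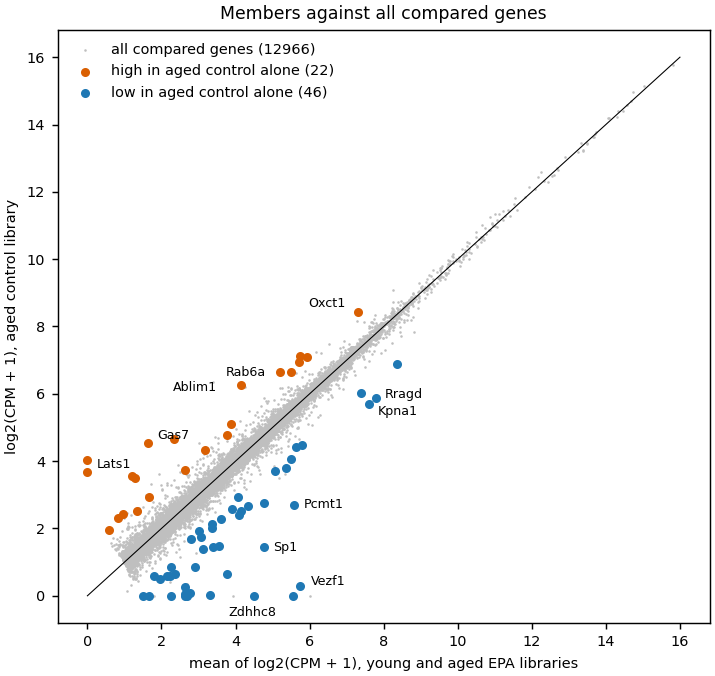
Each point is a gene, with the mean log2(CPM + 1) of the young and aged EPA libraries on the x axis and log2(CPM + 1) of the aged control library on the y axis; the line marks equal values. The 22 high members (orange) lie above and the 46 low members (blue) below that line, with Vezf1, Sp1 and Pcmt1 far below it. The compared genes (grey) include genes left out by name, such as Cacng6, and some of them lie as far from the line as members do.

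Members that bind DNA or chromatin are described first. Vezf1, a zinc finger factor of blood vessel development (ENSMUSG00000018377, chromosome 11, 88068279 to 88084729 on GRCm38, plus strand), had 49.6 CPM in young, 0.212 CPM in aged control and 54.7 CPM with EPA. The log2 ratio of counts of aged control to young was -7.86 (95% counting interval -8.82 to -7.06). Sp1, a factor that binds GC boxes in many promoters (ENSMUSG00000001280, chromosome 15, 102406143 to 102436404, plus strand), had 29.2 CPM in young, 1.72 CPM in aged control and 23.5 CPM with EPA. Its log2 count ratio was -4.08 against young (interval -4.39 to -3.79) and -3.85 against aged EPA (-4.16 to -3.55). For both genes the aged control library was the low one, and the other libraries differed from each other by far less than from it.

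The promoters of these factors are shown because Sp1 is itself a member and its box, GGGCGG on either strand, can be looked for in them. The windows run from 250 bases before to 50 bases after the start site (RefSeq, GRCm38.p6), 5′ to 3′ on the gene's strand, with every GGGCGG or its reverse complement CCGCCC in capitals.
Vezf1 (chr11:88068029-88068328, plus strand): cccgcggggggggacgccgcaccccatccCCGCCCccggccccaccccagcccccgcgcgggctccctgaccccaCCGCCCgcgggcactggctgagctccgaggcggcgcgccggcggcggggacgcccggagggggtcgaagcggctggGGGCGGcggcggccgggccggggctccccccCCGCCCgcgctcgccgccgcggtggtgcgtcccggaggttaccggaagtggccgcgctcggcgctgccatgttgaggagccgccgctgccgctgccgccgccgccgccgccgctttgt
Sp1 (chr15:102406066-102406365, plus strand): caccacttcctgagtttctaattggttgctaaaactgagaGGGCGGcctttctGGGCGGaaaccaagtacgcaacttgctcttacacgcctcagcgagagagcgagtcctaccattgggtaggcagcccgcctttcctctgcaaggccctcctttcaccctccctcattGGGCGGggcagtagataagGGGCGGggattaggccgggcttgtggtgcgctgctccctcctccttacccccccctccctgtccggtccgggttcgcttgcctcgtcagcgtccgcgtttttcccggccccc
Each window held 4 GC boxes. A match of letters is no evidence of binding.

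Other factors were low at higher levels. Nfe2l1, which drives proteasome genes when proteasomes fail, had 387 CPM in young, 118 CPM in aged control and 274 CPM with EPA. Nfat5, the factor of the response to salt stress, had 52.3 CPM in young, 15.7 CPM in aged control and 37.0 CPM with EPA. In these genes aged EPA was also lower than young, with log2 count ratios of -0.47 (interval -0.50 to -0.44) for Nfe2l1 and -0.49 (-0.57 to -0.41) for Nfat5. Aged control was the lowest of the libraries in both genes.

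Several zinc finger genes followed. Zfp322a had 11.3 CPM in young, 1.71 CPM in aged control and 8.08 CPM with EPA. Zfp346, which binds double-stranded RNA, had 17.1, 4.73 and 16.6 CPM in the same order. Zfp90 had 1.83 CPM in young and 1.87 CPM with EPA and was listed at 0 in the aged control library. Hmgn2, a protein that binds nucleosomes, had 6.61 CPM in young, 1.62 CPM in aged control and 9.14 CPM with EPA. A further pair of DNA-binding proteins belonged to the high group. Ahdc1, an AT-hook protein, had 4.23 CPM in young, 24.4 CPM in aged control and 3.85 CPM with EPA, a log2 count ratio of 2.48 against young (interval 2.29 to 2.69). Pknox1, a homeobox factor, had 5.35 CPM in young, 12.2 CPM in aged control and 5.01 CPM with EPA.

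**Figure D2:**
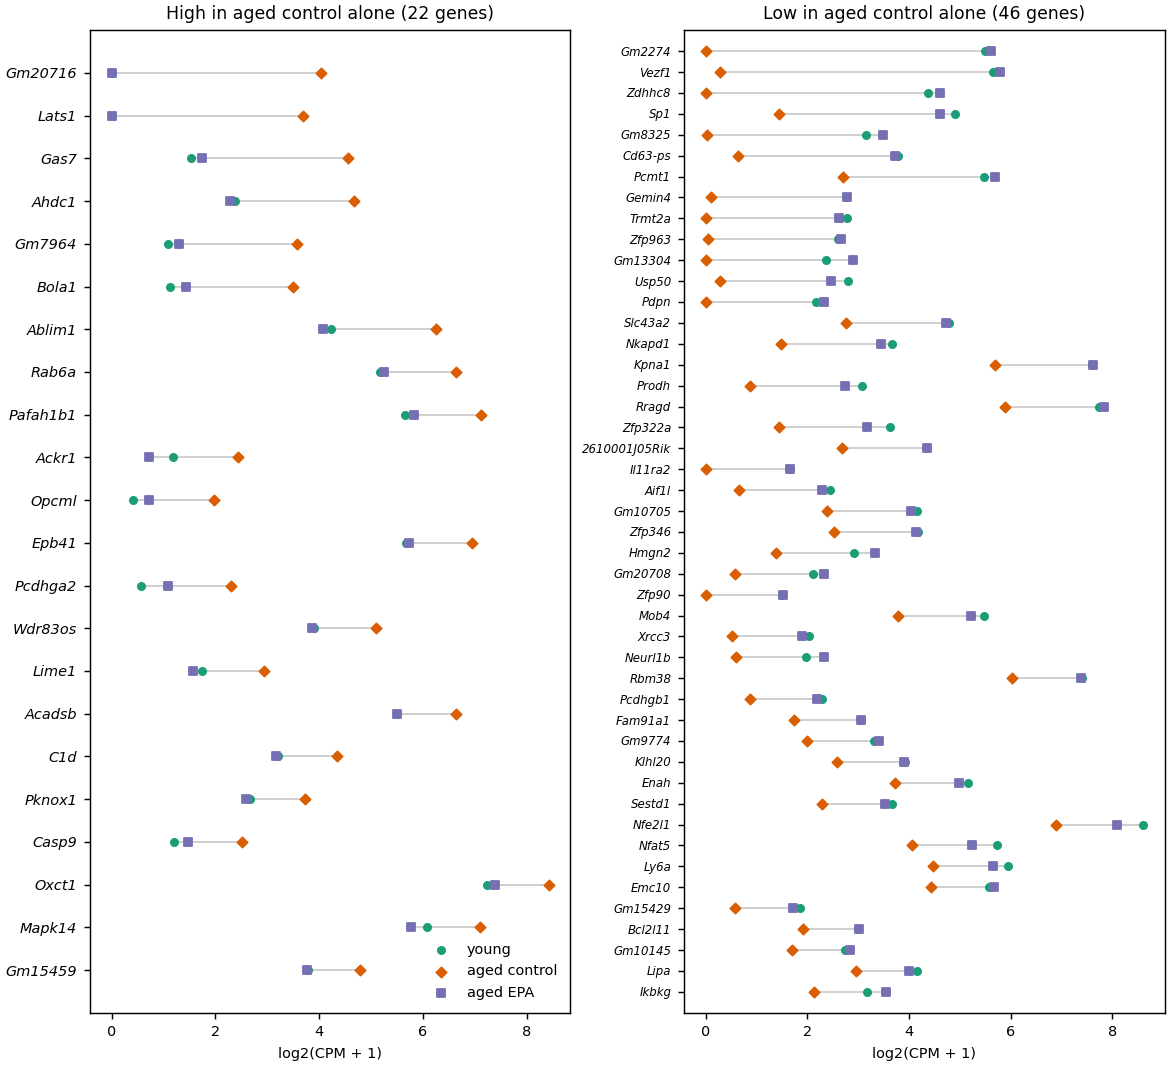
Each row is a member with its log2(CPM + 1) on the x axis in the young (circle), aged control (diamond) and aged EPA (square) libraries; rows are ordered by the smaller of the differences of aged control from the others. In the high group Gm20716 and Lats1 are at 0 in young and aged EPA, and in the low group 7 genes are at 0 in aged control.

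Several high members encode proteins of the cytoskeleton or of membrane shape. Gas7, an F-BAR protein that links membranes to actin (ENSMUSG00000033066, chromosome 11, 67455437 to 67688990), had 1.89 CPM in young, 22.5 CPM in aged control and 2.34 CPM with EPA. That is 12.1-fold above young and 9.54-fold above aged EPA in counts over each library's own total. Ablim1, an actin-binding LIM protein (ENSMUSG00000025085, chromosome 19, 57032733 to 57314919), had 17.7 CPM in young, 75.4 CPM in aged control and 15.8 CPM with EPA. Its log2 count ratio was 2.11 against young (interval 2.01 to 2.21) and 2.25 against aged EPA (2.14 to 2.35). Epb41, which ties spectrin and actin to the membrane, had 49.8 CPM in young, 123 CPM in aged control and 52.4 CPM with EPA. In all of them aged control was the only library apart by the rule.

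The high members Pafah1b1, Rab6a and Wdr83os act in transport or in the secretory pathway. Pafah1b1, which encodes the dynein regulator LIS1, had 49.5 CPM in young, 138 CPM in aged control and 55.6 CPM with EPA. The log2 count ratio was 1.44 against young (interval 1.38 to 1.51). Rab6a, a GTPase of the Golgi (ENSMUSG00000030704, chromosome 7, 100607410 to 100641268), had 35.1 CPM in young, 99.0 CPM in aged control and 36.9 CPM with EPA. Wdr83os, a protein of the endoplasmic reticulum, had 13.9 CPM in young, 33.1 CPM in aged control and 13.5 CPM with EPA. It shares 54.9% of its sequence, counted as 31-base words, with other genes, and Wdr83, which overlaps it, had 14.6 CPM in young, 10.9 CPM in aged control and 13.2 CPM with EPA, so the assignment of reads between them is uncertain. Of the promoter windows of high members, 11 of 24 held a GC box. The promoter of Rab6a is shown beside those of Vezf1 and Sp1 as that of a high member, in the same form, and it held 0 GC boxes.
Rab6a (chr7:100607336-100607635, plus strand): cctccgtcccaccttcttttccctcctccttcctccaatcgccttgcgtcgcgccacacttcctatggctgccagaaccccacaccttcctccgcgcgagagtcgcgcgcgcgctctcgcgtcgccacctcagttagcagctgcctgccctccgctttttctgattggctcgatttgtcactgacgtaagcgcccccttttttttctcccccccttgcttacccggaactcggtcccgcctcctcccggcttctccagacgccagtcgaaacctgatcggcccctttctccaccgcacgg

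Some low members have roles in the same structures. Enah, which extends actin filaments, had 35.0 CPM in young, 12.2 CPM in aged control and 30.6 CPM with EPA. Mob4, a subunit of the striatin phosphatase and kinase complex, had 43.7 CPM in young, 12.8 CPM in aged control and 36.4 CPM with EPA. Aif1l, an actin-binding protein, had 4.47 CPM in young, 0.567 CPM in aged control and 3.92 CPM with EPA. Cytoskeletal genes were thus found in both groups. Sestd1, which carries lipid-binding and spectrin domains, had 11.7 CPM in young, 3.88 CPM in aged control and 10.6 CPM with EPA. Emc10, a subunit of the complex that inserts proteins into the endoplasmic reticulum, had 46.7 CPM in young, 20.6 CPM in aged control and 50.2 CPM with EPA. Fam91a1, which captures vesicles at the Golgi, had 7.34 CPM in young, 2.32 CPM in aged control and 7.35 CPM with EPA.

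Low members also included single genes of nutrient sensing, lysosomes and nuclear import. Rragd, a Rag GTPase that recruits the growth kinase mTOR to lysosomes when amino acids are present (ENSMUSG00000028278, chromosome 4, 32983037 to 33022180), had 213 CPM in young, 58.2 CPM in aged control and 229 CPM with EPA. Its log2 count ratio was -1.87 against young (interval -1.92 to -1.81) and -2.05 against aged EPA (-2.10 to -1.99). Kpna1, an importin alpha that carries proteins into the nucleus, had 193 CPM in young, 50.5 CPM in aged control and 195 CPM with EPA. Both genes were between 3-fold and 5-fold lower in aged control than in the other libraries. Slc43a2, a transporter of large neutral amino acids, had 26.6 CPM in young, 5.76 CPM in aged control and 25.6 CPM with EPA. Lipa, the acid lipase of lysosomes, had 16.9 CPM in young, 6.72 CPM in aged control and 14.9 CPM with EPA. Rbm38, an RNA-binding protein of muscle differentiation, had 169.6 CPM in young, 64.1 CPM in aged control and 166 CPM with EPA. Aged control was the low library by less in Lipa and Rbm38 than in Slc43a2.

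Zdhhc8, a palmitoyltransferase that attaches fatty acid to proteins (ENSMUSG00000060166, chromosome 16, 18220753 to 18235136, minus strand), had 19.9 CPM in young and 23.3 CPM with EPA and was listed at 0 in aged control. A further 6 low members were listed at 0 there: Gm2274, Trmt2a, Gm13304, Pdpn, Il11ra2 and Zfp90. Levels of these 7 genes in young ran from 1.83 CPM for Zfp90 to 43.9 CPM for Gm2274. No fold is given against a value listed at 0, since whether reads were absent or assigned elsewhere was not tested.

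Kinases and regulators of cell death stood in both groups. Lats1, a kinase of the Hippo pathway that restrains growth, had 11.9 CPM in aged control and was listed at 0 in both other libraries. Mapk14, the p38 alpha stress kinase, had 66.6 CPM in young, 135.5 CPM in aged control and 53.9 CPM with EPA. Casp9, the initiator caspase of the mitochondrial death pathway, had 1.3 CPM in young, 4.72 CPM in aged control and 1.77 CPM with EPA. These were the high ones. Bcl2l11, which encodes the death-promoting protein BIM, had 6.98 CPM in young, 2.78 CPM in aged control and 7.09 CPM with EPA. Ikbkg, the scaffold of the kinase complex that activates NF-kappaB, had 8.0 CPM in young, 3.38 CPM in aged control and 10.7 CPM with EPA. Members of the same death pathway, Casp9 and Bcl2l11, thus lay in opposite directions.

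Among the members are enzymes and proteins of mitochondrial metabolism. Oxct1, the enzyme by which muscle uses ketone bodies, had 150.0 CPM in young, 342 CPM in aged control and 168 CPM with EPA, with a log2 count ratio of 1.21 against young (interval 1.17 to 1.24) and 1.02 against aged EPA (0.99 to 1.06). Acadsb, which oxidises short branched-chain acyl-CoA, had 44.0 CPM in young, 99.0 CPM in aged control and 44.2 CPM with EPA. Bola1, a mitochondrial protein of iron-sulphur cluster handling, had 1.2 CPM in young, 10.4 CPM in aged control and 1.69 CPM with EPA. These were high members. Prodh, which starts proline breakdown in mitochondria, was low, with 7.47 CPM in young, 0.821 CPM in aged control and 5.73 CPM with EPA.

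Members that handle RNA, DNA breaks or ubiquitin came next. Gemin4, a subunit of the SMN complex that builds splicing particles, had 5.74 CPM in young, 0.0696 CPM in aged control and 5.89 CPM with EPA. Gemin4 shares most of its sequence with an overlapping gene given below, so the assignment of its reads is uncertain. Trmt2a, a transfer RNA methyltransferase, had 5.84 CPM in young and 5.17 CPM with EPA. Xrcc3, a protein of homologous recombination, had 3.07 CPM in young, 0.424 CPM in aged control and 2.72 CPM with EPA. Gemin4 was near the floor of 3 counts in aged control, whereas Xrcc3 was above it. Klhl20, an adaptor of a cullin ubiquitin ligase, had 14.1 CPM in young, 4.99 CPM in aged control and 13.9 CPM with EPA. Neurl1b, a ubiquitin ligase for Notch ligands, had 2.95 CPM in young, 0.514 CPM in aged control and 4.02 CPM with EPA. Nkapd1 had 11.6 CPM in young, 1.81 CPM in aged control and 9.96 CPM with EPA, and 2610001J05Rik had 19.2, 5.39 and 19.6 CPM in the same order. C1d, a cofactor of the RNA exosome, was the high one among those named here, with 8.23 CPM in young, 19.2 CPM in aged control and 8.01 CPM with EPA.

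Surface proteins included genes used as markers of other cells. Ly6a, which encodes the progenitor and endothelial marker Sca-1, had 60.7 CPM in young, 21.3 CPM in aged control and 49.3 CPM with EPA. It is 1 of 10 markers of fibro-adipogenic progenitors, and it was the only one of them at least 2-fold apart. These 10 markers summed to 3119 CPM in young, 2960.2 CPM in aged control and 3042 CPM with EPA. Most of each sum came from Gsn (1572, 1540 and 1682 CPM in the same order) and Dcn (830, 845 and 831 CPM), so it says little of the other markers. Pdpn, podoplanin of lymphatic and stromal cells, had 3.5 CPM in young and 4.01 CPM with EPA. Ackr1, a chemokine-binding receptor of venules and red cells, was high, with 1.27 CPM in young, 4.43 CPM in aged control and 0.654 CPM with EPA. Beside it, 12 endothelial markers summed to 727 CPM in young, 609 CPM in aged control and 558 CPM with EPA, and 8 red cell markers to 1511, 561 and 566 CPM in the same order. Neither sum was highest in aged control; the part of these cells in the values of Ackr1 and Ly6a was not tested. Opcml, an adhesion protein, had 0.336 CPM in young, 2.91 CPM in aged control and 0.655 CPM with EPA, and Lime1, an adaptor of lymphocyte signalling, had 2.35, 6.64 and 1.96 CPM in the same order. Lime1 shares its sequence with an overlapping gene given below, so the assignment of its reads is uncertain.

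Relatives of the members gave a background for their values. Over 8 families fixed with the plan, 137 genes were compared, of which 7 were members, and 124 of the other 130 lay under 2-fold apart in both comparisons with aged control. The other 6 were Limch1, Pacsin2, Pcmtd1, Pcmtd2, Pdlim5 and Rab2b. Another 9 pathway lists, assembled after the members were known, held 99 other genes, of which 97 lay under 2-fold in both; Mob1a and Ppp3cb were the exceptions. Of all 12966 genes compared, 2.47% were at least 2-fold apart in at least 1 of these comparisons, beside 4.62% of the other genes of the families and 2.02% of those of the pathway lists. The 10 cell type marker lists, also fixed with the plan, held 83 other genes, of which 7 (8.43%) were that far apart. These were Cldn5, Hba-a1, Hba-a2, Hbb-bs, Hbb-bt, Igkc and Myh7. No difference between these shares was tested.

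Among Sp and Kruppel-like factors, 17 were compared and only Sp1 was at least 2-fold from either library. Sp3, the closest relative of Sp1, had 22.9 CPM in young, 24.8 CPM in aged control and 24.7 CPM with EPA. Klf9, the most abundant of the list, had 205 CPM in young, 205 CPM in aged control and 186 CPM with EPA. The median log2 change of the list was 0.02 against young and 0.04 against aged EPA. Of 19 palmitoyltransferases compared, Zdhhc8 alone was apart; Zdhhc5, its closest relative, had 109 CPM in young, 121 CPM in aged control and 124 CPM with EPA.

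Dynein and dynactin genes were similar in this respect, with Pafah1b1 as the only one of 24 at least 2-fold apart. Its binding partner Ndel1 had 75.3 CPM in young, 77.5 CPM in aged control and 82.4 CPM with EPA, and the heavy chain gene Dync1h1 had 139.7, 157 and 152 CPM in the same order. Among Golgi and secretory Rab GTPases, Rab6b, the paralogue of Rab6a, had 16.8 CPM in young, 19.2 CPM in aged control and 15.3 CPM with EPA, while Rab2b was lower in aged control than in aged EPA (1.83 against 6.05 CPM). Ablim3, a paralogue of Ablim1, had 39.2 CPM in young, 30.8 CPM in aged control and 28.7 CPM with EPA. Pdlim5, a Z-disc protein of the same list, had 479.7 CPM in young, 226 CPM in aged control and 429 CPM with EPA and missed the 2-fold threshold against aged EPA.

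In the pathway lists, Lats2, the paralogue of Lats1, had 25.1 CPM in young, 28.0 CPM in aged control and 26 CPM with EPA. Rragc, the closest relative of Rragd, had 31.9 CPM in young, 33 CPM in aged control and 31.2 CPM with EPA. The Rag regulator Flcn had 59.9 CPM in young, 40.2 CPM in aged control and 64.1 CPM with EPA, lower in aged control but by less than 2-fold. Other importins also lay close together, with Kpna3 at 195 CPM in young, 199 CPM in aged control and 184 CPM with EPA. Nfe2l2, the relative of Nfe2l1, had 59.8 CPM in young, 65.9 CPM in aged control and 68.9 CPM with EPA. Mapk12, the p38 kinase of muscle, had 112 CPM in young, 114 CPM in aged control and 117 CPM with EPA.

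**Figure D3:**
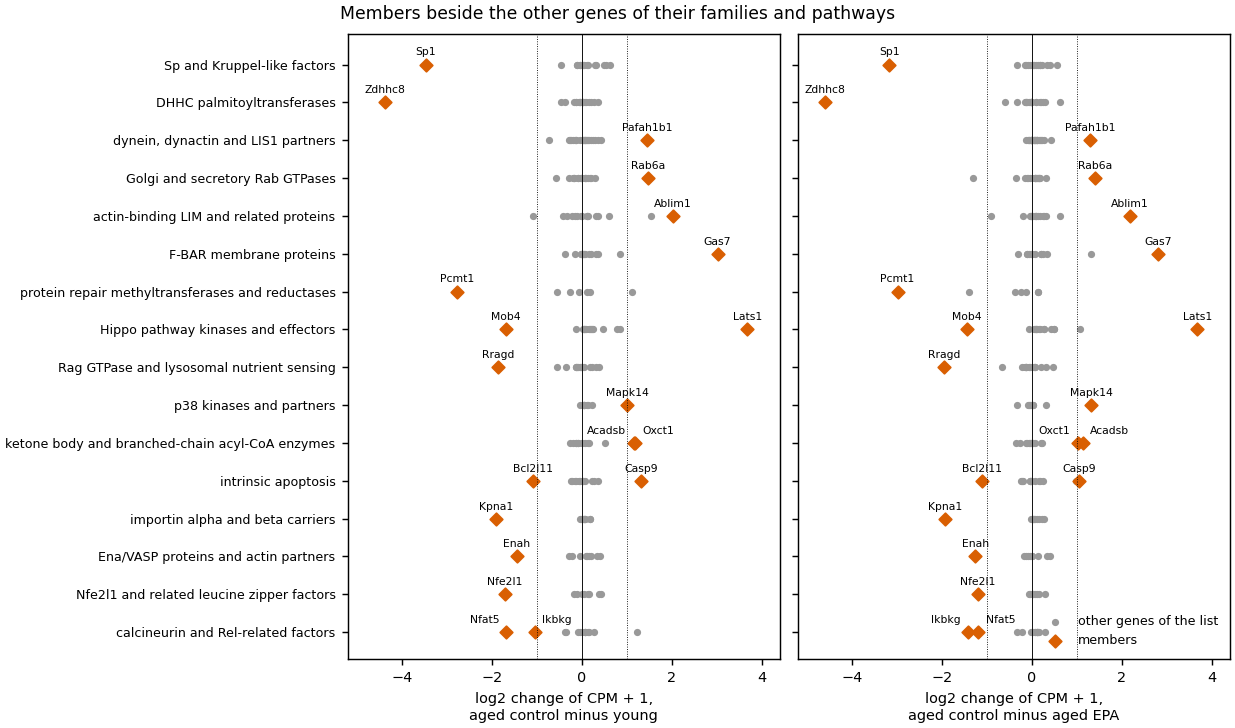
Each point is a compared gene of a family or pathway list, with the log2 change of CPM + 1 of aged control minus young (left) and minus aged EPA (right) on the x axis; dotted lines mark 2-fold and diamonds are members. Most other genes (grey) lie between the dotted lines, including all those of the importin and Ena/VASP lists; the values of Zdhhc8 and Lats1 rest on the added 1, since they contain a library at 0.

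Genes next to the members on the chromosome were compared with them. A neighbour was a gene that overlapped a member or lay within 5 kb and was at least 1.5-fold apart in aged control from both other libraries in the opposite direction. Such a gene was found for 3 of 22 high members (13.6%) and 5 of 46 low members (10.9%). Of all compared genes, 0.779% had a gene that close that was lower in aged control and 0.702% one that was higher. These shares come from the same libraries as the rule and were not tested. In the pairs Lats1 with Pcmt1 and Pcdhga2 with Pcdhgb1 the neighbour is itself a member, so the rule chose both genes and each of these pairs counts for both of its members.

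The clearest pair of neighbours was formed by members themselves. Pcmt1, which repairs damaged aspartyl residues of ageing proteins (ENSMUSG00000019795, chromosome 10, 7629373 to 7681136, minus strand), had 43.7 CPM in young, 5.53 CPM in aged control and 50.7 CPM with EPA. Lats1 (ENSMUSG00000040021, chromosome 10, 7681214 to 7716460, plus strand) starts 77 bases from the 5′ end of Pcmt1 and runs the other way. Lats1 had 684 recovered counts in aged control and 0 in both other libraries. Pcmt1 had 2509 recovered counts in young, 310 in aged control and 2869 with EPA. Summed CPM of the pair were 43.7 in young, 17.4 in aged control and 50.7 in aged EPA, so the sum was also lowest in aged control. The window that holds both starts is shown; the 5′ end of Pcmt1 is at its base 178, and capitals mark the only GC box.
Lats1 (chr10:7680959-7681258, plus strand): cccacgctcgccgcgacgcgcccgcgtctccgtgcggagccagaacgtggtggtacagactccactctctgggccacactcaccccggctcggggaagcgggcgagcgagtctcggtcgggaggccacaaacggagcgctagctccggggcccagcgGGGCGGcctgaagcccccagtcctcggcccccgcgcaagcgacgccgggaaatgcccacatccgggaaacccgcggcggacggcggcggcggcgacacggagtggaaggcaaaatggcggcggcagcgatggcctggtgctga

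Overlapping genes made up the other pairs. Gm20716, a gene model that overlaps Adnp and Dpm1 on chromosome 2, was listed at 0 in young and aged EPA and had 15.3 CPM in aged control, while Dpm1, a subunit of dolichol-phosphate mannose synthase, had 23.8 CPM in young, 12.4 CPM in aged control and 23.8 CPM with EPA. The sum of Gm20716 and Dpm1 was 23.8 CPM in young, 27.7 CPM in aged control and 23.8 CPM with EPA. Gm20716 shares 99.5% of its sequence, counted in words as for Wdr83os, with other genes, and Adnp alone holds 83%. Adnp, which is not part of that sum, had 34.7 CPM in young, 33.2 CPM in aged control and 38.6 CPM with EPA. Which of these genes the reads of Gm20716 came from was not tested. Zfp963 had 5.07 CPM in young, 0.0348 CPM in aged control and 5.35 CPM with EPA, and Gm20422, which overlaps it, had 0, 1.72 and 0 CPM. In aged control Zfp963 had 2 recovered counts, under the floor of 3. The sum of Zfp963 and Gm20422 was 5.07, 1.75 and 5.35 CPM in the same order. In both pairs the gene model at 0 in 2 libraries appeared in aged control, where its partner was lower.

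Gm20708 had 3.35 CPM in young, 0.496 CPM in aged control and 4.06 CPM with EPA, and Afmid, which overlaps it, had 0.940, 4.32 and 1.68 CPM. The sum of Gm20708 and Afmid was 4.29, 4.81 and 5.74 CPM in the same order. Usp50, of a family of ubiquitin proteases, had 5.93 CPM in young, 0.209 CPM in aged control and 4.50 CPM with EPA, and the pseudogene Gm10774 inside it had 1.70, 3.22 and 1.52 CPM. The sum of Usp50 and Gm10774 was 7.64, 3.43 and 6.01 CPM in the same order. Within the gamma protocadherin cluster, whose genes share their last exons, Pcdhga2 had 0.477 CPM in young, 3.92 CPM in aged control and 1.13 CPM with EPA, and Pcdhgb1 had 3.92, 0.821 and 3.57 CPM. Their sum was 4.39 CPM in young, 4.74 CPM in aged control and 4.71 CPM with EPA. Pcdhga2 with Pcdhgb8, another opposite pair of the cluster, summed to 5.40, 4.45 and 3.36 CPM in the same order. Pcdhgb1 summed to 4.23, 2.22 and 4.16 CPM with Pcdhga11 and to 5.32, 4.42 and 5.40 CPM with Pcdhga7. Sums were thus lower in aged control than in young for some pairs and not for others. Where genes overlap, the assignment of reads between them is uncertain.

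**Figure D4:**
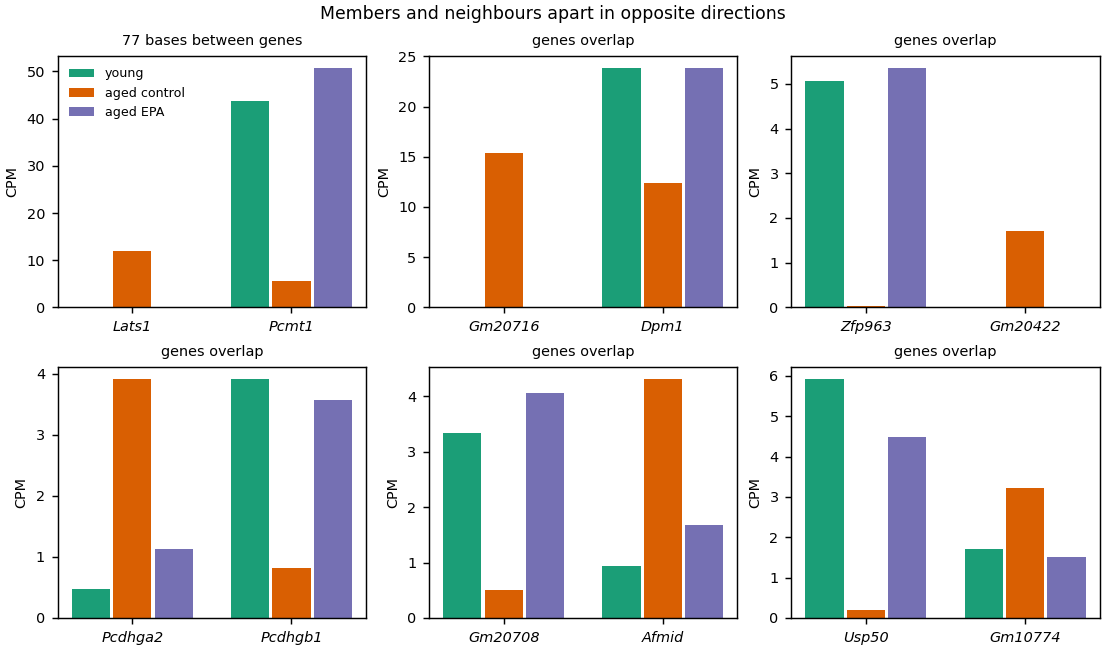
Bars give the CPM of each of the 3 libraries (1 per group, no error bars) of a member and of a neighbouring gene; each panel has its own axis from 0. In each panel 1 gene is highest and the other lowest in the aged control library, as for Lats1 (0, 11.9 and 0 CPM) and Pcmt1 (43.7, 5.53 and 50.7 CPM).

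Low members also lay near each other on chromosome 16. Prodh, Zdhhc8 and Trmt2a fall in a stretch of 8 compared genes between 18052860 and 18407076, with 131 kb between Prodh and Zdhhc8 and 13.5 kb between Zdhhc8 and Trmt2a. The other 5 genes of the stretch did not share this: their log2 change of CPM + 1 lay between -0.27 and 1.2 against young and between -0.24 and 0.98 against aged EPA. The stretch was drawn around Prodh, Zdhhc8 and Trmt2a with 100 kb on either side, so their number in it follows from that choice. How often compared genes lie this near each other was not counted. Ranbp1, which lies between Zdhhc8 and Trmt2a and overlaps the 5′ end of the latter, had 9.09 CPM in young, 7.35 CPM in aged control and 7.16 CPM with EPA. Tango2 was higher in aged control, with 3.67 CPM in young, 9.74 CPM in aged control and 4.44 CPM with EPA. By chromosome, 8 members each lay on chromosomes 4 and 11 (11.8% of the members each, beside 6.29% and 8.43% of all compared genes). Chromosome 16 held 4 members (5.88%, beside 3.06% of all compared genes).

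Sequence shared with other genes was more frequent among the members than among all compared genes, as a description without a test. For each gene, the share of its 31-base words (in its longest GENCODE transcript) that also occur in a transcript of another gene was counted. At least 50% were shared in 5 of 22 high members (22.7%), 13 of 46 low members (28.3%) and 1182 of 12966 compared genes (9.12%). Genes apart in aged EPA alone by the same rule gave 9 of 65 (13.8%), and those apart in young alone 17 of 87 (19.5%). Reads of such genes can match more than one place, so their assignment is uncertain.

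**Figure D5:**
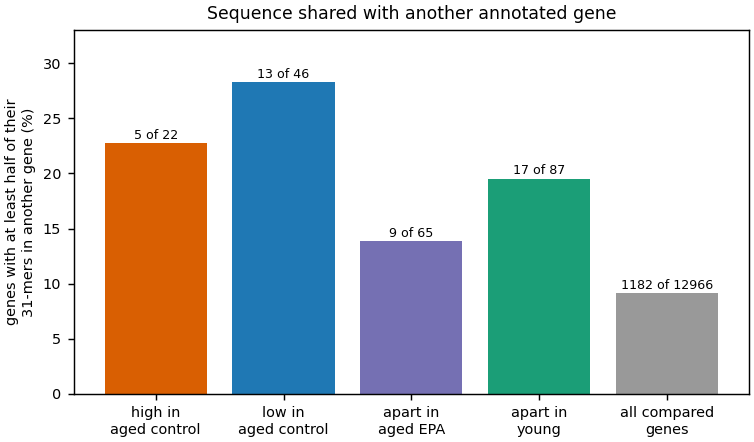
Bars give the percent of genes with at least 50% of their 31-base words in another annotated gene, with counts above the bars, for genes high or low in aged control alone, genes apart in aged EPA or young alone, and all compared genes. The low members have the tallest bar (13 of 46) and all compared genes the shortest (1182 of 12966).

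In 6 of these members the other gene overlaps on the genome, and in 11 it lies elsewhere; for Zfp90 no single gene of the tables held most of the shared words. Gm2274, a pseudogene, shared 98.8% of its words with Anxa11, an annexin gene. It had 43.9 CPM in young, 0 in aged control and 48.1 CPM with EPA, while Anxa11 had 77.4, 81.5 and 71.4 CPM. Cd63-ps shared 61.4% with Cd63, a tetraspanin of endosomes. The pseudogene had 12.8 CPM in young, 0.553 CPM in aged control and 12.2 CPM with EPA, while Cd63 had 75.5, 79.3 and 79.1 CPM. In neither pair was the parent gene at least 2-fold apart.

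Further low members resembled genes elsewhere in the genome. Gm8325 shared 78.7% of its words with Ube2v1 and had 7.90 CPM in young, 0.0174 CPM in aged control and 10.2 CPM with EPA. Its value in aged control was 1 recovered count, under the floor of 3. Gm10705 and Gm10145 both resembled Ube2l3, a ubiquitin-conjugating enzyme gene. Gm10705 had 16.9 CPM in young, 4.26 CPM in aged control and 15.5 CPM with EPA, and Ube2l3 had 26.6, 63.8 and 142 CPM. Ube2l3 was thus itself more than 2-fold apart, in an order of its own with aged EPA highest. Gm15429 shared all of its words with Aph1a and had 2.61 CPM in young, 0.50 CPM in aged control and 2.30 CPM with EPA. Gm9774, which resembles the proteasome receptor gene Adrm1, had 9.0 CPM in young, 3.00 CPM in aged control and 9.60 CPM with EPA.

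In the high group, Gm7964, a copy of Hnrnpk, had 1.12 CPM in young, 10.9 CPM in aged control and 1.46 CPM with EPA, while Hnrnpk had 91.7, 101 and 93.8 CPM. Gm15459, a copy of the chaperone gene Hspa8, had 12.7 CPM in young, 26.5 CPM in aged control and 12.7 CPM with EPA. Copies with coding annotation also occurred. Il11ra2 had 2.17 CPM in young and 2.14 CPM with EPA, and its parent Il11ra1, an interleukin receptor gene, had 36.0, 32.1 and 34.5 CPM. Il11ra1 holds 70.2% of the words of Il11ra2, while Gm13305 holds 100% of them and had 1.28, 1.49 and 1.06 CPM. Gm13304, which shares 82.8% of its words with the chemokine gene Ccl21a, had 4.20 CPM in young, 0 in aged control and 6.49 CPM with EPA, while Ccl21a had 3.5 CPM, 3.44 CPM and 0. Gm21541, which holds 100% of the words of Gm13304, had 0.572, 0.620 and 0.801 CPM in the same order. Lime1 and Gemin4 share 100% and 94.7% of their words with Zgpat and Glod4, which overlap them. Zgpat had 12.1 CPM in young, 8.02 CPM in aged control and 10.2 CPM with EPA. Glod4 had 14.1 CPM in young, 18.9 CPM in aged control and 13.7 CPM with EPA. In aged control Zgpat was thus lowest where Lime1 was highest, and Glod4 was highest where Gemin4 was lowest. How reads were assigned within these pairs was not tested.

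Vezf1, Sp1, Zdhhc8, Pcmt1, Rragd, Kpna1, Gas7, Ahdc1, Ablim1, Rab6a and Pafah1b1 are among the 50 members below this share of sequence. A low share does not settle how their reads were assigned, which was not tested. Other properties were also set beside those of all compared genes. The median transcript length was 4074 bases for high members, 3430 bases for low members and 3302 bases for all compared genes, and the median GC content was 49.3%, 48.8% and 49.9%. Protein-coding genes were 20 of 22 high (90.9%) and 40 of 46 low members (87.0%), beside 92.1% of all compared genes. Pseudogenes were 11.8% of the members and 4.89% of all compared genes. The median level, as a mean over the libraries, was 9.86 CPM for high and 7.58 CPM for low members beside 13.6 CPM for all compared genes.

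Promoter windows were matched by symbol for 17 high and 32 low members. GGGCGG on either strand was in 31 of 44 windows of low members (70.5%) and 11 of 24 of high members (45.8%), beside 61.8% of windows of compared genes and 35.7% of all windows. The letters TATAAA were in 1 window of low members (2.27%) and 2 windows of high members (8.33%), beside 7.44% of windows of compared genes and 13.6% of all windows. CCAAT was in 45.5% of windows of low and 41.7% of high members, beside 37.2% of windows of compared genes and 37.4% of all windows. Some genes have several windows, and each motif was counted on both strands without regard to overlap with the others.

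Just inside on the high side were Gm15459, Mapk14 and Oxct1, with a smaller log2 change of CPM + 1 of 1.002, 1.013 and 1.024. Just outside were Afmid (0.989), Tango2 (0.982) and Atg4a (0.980). On the low side, Ikbkg (1.039), Lipa (1.043) and Gm10145 (1.045) were just inside. Srp14 (0.997), Cflar (0.965) and Gatad1 (0.962) were just outside; Srp14, of the signal recognition particle, had 52.3 CPM in young, 24.4 CPM in aged control and 49.8 CPM with EPA. The mean of at least 1 CPM kept out 5 further genes on the high side and 3 on the low side, and 4 genes that met the low thresholds were left out by name: Cacng6, Cacng7, Rpl7a and Rps27a-ps2. By the same rule, 65 genes were apart in the aged EPA library alone and 87 in the young library alone, so that each of the 3 libraries had genes of this kind.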

How the data were processed

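Each group was 1 library of pooled RNA. Per the submitters' processing notes, the tools were StringTie 1.3.4d, HISAT2 2.1.0 and R 3.5.0 and the build was GRCm38; how reads of shared sequence were counted is not given in the sources used here. The authors deposited CPM per gene (42258 genes). These were used as they stood, summed by symbol, with a pseudocount of 1. All values above 0 became whole counts under 1 of 5 divisors (largest distance from a whole number 3.03e-09), from which counts, totals and 95% Clopper-Pearson intervals of count ratios were computed; intervals and the floor of 3 counts cover counting error only. The divisor differed between genes of a library, and CPM summed to 1009954 (young), 1011788 (aged control) and 988188 (aged EPA). The authors' reason is not given in the sources used here. Gene positions, transcripts and 31-base words came from GENCODE M21 (GRCm38; 42170 identifiers matched), promoters from RefSeq. The members and lists were chosen with earlier results of these data known. Genes named in full are the 12 per direction with the largest smaller change among members that average 5 CPM or more and carry no placeholder name (Gm, Rik), members and abundant relatives in the lists, members at 0 in aged control, neighbours and copies, and genes next to the thresholds; the remaining members were named after their values were seen. Neighbours, lists and alternatives were planned except the shared words, the chromosome 16 stretch, the 9 pathway lists and 2 alternatives. The rule was also run on simulated counts with known changes above the 2-fold threshold, in genes over a minimum level. That simulation held counting error only and no variation between mice or preparations, so it does not show how the rule performs on these members. Python 3.11.15, pandas 2.3.3, NumPy 2.4.6, SciPy 1.17.1 and matplotlib 3.10.9 were used.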

Additional observations from a re-analysis of the deposited data

How the results depend on the processing

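No paired analysis was possible because each group has 1 library, and no replicate could be left out. With a pseudocount of 5 there were 13 high and 23 low members, with a mean of at least 5 CPM 14 and 30, with a 3-fold threshold 7 and 24, and with a 1.5-fold threshold and a tighter limit on the gap between the others 58 and 77, of which 20 and 36 were members. Counts stayed within 1.5 times of 22 and 46 with a pseudocount of 0.1 (26 and 64), without a filter (27 and 49), with median-of-ratios scaling (20 and 47), TMM (21 and 48), without mitochondrially encoded and the 20 most abundant genes (28 and 59), with the highest row of a symbol (22 and 46) and with recovered counts (19 and 47). In 2 alternatives chosen after seeing the data, recovered counts with TMM gave 21 and 47, and members below 50% of shared words numbered 17 and 33. The 8 members with an opposite neighbour became 5 with the neighbour 2-fold apart, 6 with overlap only and 9 within 50 kb. None of the 288 values of the 24 named members under alternatives changed sign, and 9 were under 2-fold. These members were picked for the largest changes in the same libraries, so the kept sign follows from that choice and is no support. Depth limits what can be said of members near 3 counts.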
